A study of Homo sapiens with 24 samples.

Results

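The genes followed here belong to sterol export and its control by the liver X receptors (LXRs). There were 8: the receptors NR1H3 (LXR alpha) and NR1H2 (LXR beta), the exporters ABCA1 and ABCG1, the LXR target genes MYLIP and LPCAT3, and the lysosomal cholesterol carriers NPC1 and NPC2. They were chosen by name with earlier results of these data known, as were the pathway lists below. Counts and ranks set against all genes may partly reflect that choice. Every probe set that the platform's annotation gives to 1 of the 8 symbols alone was taken. The brightest on average across the 24 arrays gave a gene's main value. Of the 8 genes, 7 had such a probe set, among 19775 genes in all. They held 22 of the 54613 probe sets in the table, and NR1H2 is not analysed here.

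RNA came from KARPAS-422, a line grown from a diffuse large B-cell lymphoma, and every group shares this line and its labelled EZH2 genotype, Y641N, a substitution in the enzyme's catalytic domain. EZH2 is the methyltransferase of the Polycomb repressor PRC2. Cells received an EZH2 inhibitor at 5 uM (EZH2i) or DMSO and were collected after 1, 2, 3 or 6 days, giving 8 groups of 3 Affymetrix U133 Plus 2 arrays that the labels call biological triplicates. The labels do not name the compound, and with 1 line and 1 dose the values describe that line at that dose. A p-value here measures the spread between these samples, which may be partly technical. In bulk RNA a smaller share of cells with a transcript and less of it in each cell cannot be told apart.

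LXRs are nuclear receptors that bind oxysterols, pair with a retinoid X receptor (RXR) and switch on genes that lower the sterol content of the cell. ABCA1 and ABCG1 pass cholesterol and phospholipid across the plasma membrane to lipoprotein acceptors, and ABCA1 is best known for this role in macrophages and liver. NPC2, a soluble protein of the lysosome, hands cholesterol to the membrane protein NPC1, from where it reaches the rest of the cell. Cells make their own sterol under the opposite control of the SREBP transcription factors.

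The 250 bases before the start sites of ABCA1, NPC2 and LPCAT3 are shown because these genes gave the clearest differences in each direction. All are on the minus strand of GRCh38.p14 (RefSeq), at chr9:104928156-104928405 for ABCA1, chr14:74493513-74493762 for NPC2 and chr12:7018477-7018726 for LPCAT3, written 5′ to 3′ toward the start site. Capitals mark GC boxes (GGGCGG on either strand), and in ABCA1 also an E-box (CACGTG) and a match to the LXR element DR4.
ABCA1: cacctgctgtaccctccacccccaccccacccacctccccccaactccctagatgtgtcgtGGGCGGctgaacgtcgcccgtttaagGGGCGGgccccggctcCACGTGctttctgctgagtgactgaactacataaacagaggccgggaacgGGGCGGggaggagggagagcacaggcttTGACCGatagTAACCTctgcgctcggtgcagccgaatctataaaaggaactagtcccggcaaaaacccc
NPC2: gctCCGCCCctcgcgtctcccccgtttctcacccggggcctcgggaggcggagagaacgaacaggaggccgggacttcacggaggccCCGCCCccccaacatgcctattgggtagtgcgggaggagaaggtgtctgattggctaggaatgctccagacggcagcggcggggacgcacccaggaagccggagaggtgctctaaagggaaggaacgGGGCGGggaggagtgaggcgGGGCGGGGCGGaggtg
LPCAT3: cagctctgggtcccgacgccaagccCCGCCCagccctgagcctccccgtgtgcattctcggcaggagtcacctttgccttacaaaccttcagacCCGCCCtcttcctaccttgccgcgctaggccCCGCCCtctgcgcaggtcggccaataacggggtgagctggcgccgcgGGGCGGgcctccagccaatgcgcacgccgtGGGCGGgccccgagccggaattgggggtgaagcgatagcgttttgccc

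The DR4 search looked on both strands for a direct repeat of AGGTCA with 4 bases between the copies, and up to 2 letters of the copies were allowed to differ. The ABCA1 match, read on the other strand, is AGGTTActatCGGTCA at chr9:104928209-104928224, bases -69 to -54 from the start site, and it overlaps neither the E-box nor a GC box. Windows of 300 bases, 250 before and 50 after a start site, were found for 7 of the 8 genes, 11 windows in all, and only the ABCA1 window held a DR4 match. Of all 35114 RefSeq windows of that length, 2.34% held one, against 7.26% with the E-box and 45.0% with a GC box. The stretch before ABCA1 holds 3 GC boxes, and those before NPC2 and LPCAT3 hold 5 each, a pair of which share a base in NPC2. Among the 18 genes with a window in a wider list of LXR targets, ABCA1 and the apolipoprotein gene APOC2 had a DR4 match. A match describes the letters of a window and not the binding of a factor.

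The arrays carried a B cell's transcripts throughout. MS4A1 (CD20), PAX5 and CD79B had group means of 10.47 to 13.08 and CD79A of 9.03 to 9.26, all log2 values. The mean of the 4 B cell markers was 11.38 to 11.47 on the EZH2i arrays of day 6, against 11.01 to 11.12 on the DMSO arrays of that day. CD79B (1.10) and MS4A1 (0.37) were called higher, while CD79A (0.08) and PAX5 (-0.11) were not called. PAX5 was called lower at day 3 (-0.37, limma, adjusted p = 0.0291), as were 7.65% of all genes. The 6 macrophage and monocyte markers averaged 4.16 to 4.41 on the EZH2i arrays of day 6 and 4.49 to 4.57 on the DMSO arrays. Of these, 0 were called higher and 3 lower, with CD14, CSF1R and ITGAM the lower ones. The 6 T and NK cell markers averaged 5.59 to 5.75 in EZH2i and 5.71 to 5.88 in DMSO at day 6, with CD3D lower and with CD3G at group means of 10.80 to 11.09. The 6 fibroblast and endothelial markers averaged 4.70 to 4.79 and 4.83 to 4.92, with 1 called lower. Of all genes, 18.5% were called higher and 26.9% lower at day 6, the shares to set beside these marker calls. The EZH2 transcript differed by 0.05, -0.09 and -0.29 at days 1, 2 and 3 and fell by 0.64 ± 0.12 at day 6 (SE, limma, adjusted p = 8.9e-05).

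ABCA1 and NPC2 rose under the inhibitor from day 2 on, with larger differences at each later day, while LPCAT3 fell at days 3 and 6 and NR1H3 at day 6. MYLIP, ABCG1 and NPC1 passed the test at no day. Every difference is EZH2i minus DMSO of the same day in log2 units, so that 1 unit is 2-fold, and a gene is called when limma's p, adjusted by Benjamini and Hochberg over the 19775 genes, is under 0.05. At day 1 ABCA1 and NPC2 had a limma p under 0.05 before adjustment. The share of all genes at that threshold was not counted. The number called at day 1 was 0 of the 7 genes, against 0.485% of all genes. At day 2 the count was 2 of 7 against 4.39% of all genes, and at day 3 it was 3 of 7 against 16.3%. At day 6 it was 4 of 7, 2 higher and 2 lower, against 45.4% of all genes, 18.5% higher and 26.9% lower, so the count of that day is near the background. The median difference of the 7 genes at day 6 was -0.19, against -0.11 over all genes.

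**Figure D1:**
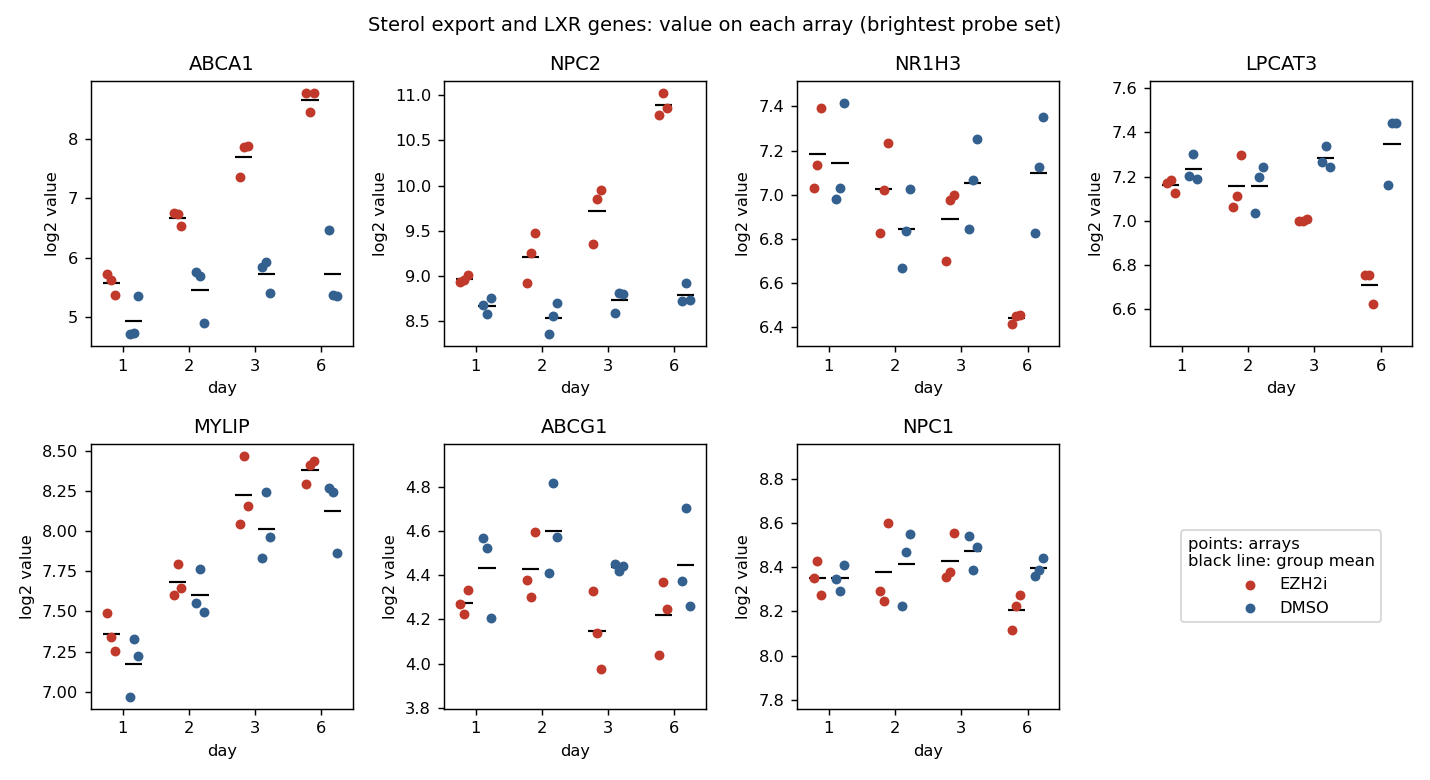
Log2 value of the brightest probe set of the 7 genes on each array (vertical axis) by day (horizontal axis), with EZH2i in red on the left, DMSO in blue on the right and a black line at each group mean. The vertical axes differ between genes. ABCA1 and NPC2 climb under EZH2i to means of 8.67 and 10.89, while NR1H3 and LPCAT3 dip at day 6, MYLIP climbs in both arms, and ABCG1 and NPC1 stay within spans of 0.45 and 0.27.

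ABCA1 lies at chr9:104781006-104928155 (GRCh38.p14), and its main probe set was 203505_at. At day 1 it read 5.72, 5.62 and 5.36 on the EZH2i arrays and 4.71, 4.73 and 5.35 on the DMSO arrays. At day 2 it read 6.75, 6.73 and 6.53 in EZH2i and 5.76, 5.70 and 4.89 in DMSO. The EZH2i arrays lay above the DMSO arrays on both days, at day 1 with 5.36 beside 5.35 in the closest pair, and DMSO replicate 3 was the low one at day 2. At day 3 the values were 7.36, 7.88 and 7.89 in EZH2i and 5.84, 5.92 and 5.40 in DMSO. At day 6 they were 8.78, 8.46 and 8.78 in EZH2i and 6.46, 5.36 and 5.35 in DMSO. Again no EZH2i array fell into the DMSO range, and DMSO replicate 1 at day 6 stood about a unit above the other DMSO arrays of that day.

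The difference in ABCA1 was 0.64 ± 0.26 at day 1, which was not called (SE, n = 3 arrays per group, limma, adjusted p = 0.641). It was 1.22 ± 0.26 at day 2 (adjusted p = 0.00561), 1.99 ± 0.26 at day 3 (adjusted p = 1.0e-05) and 2.95 ± 0.26 at day 6 (adjusted p = 4.1e-09), a rise of 7.72-fold with a 95% interval of 2.41 to 3.49 log2 units. The day 6 difference ranked 79th from the highest of 19775 genes. The call at day 2 was lost without DMSO replicate 3 (0.94, adjusted p = 0.0516). It was also lost without the arrays of replicate number 2 (1.31, adjusted p = 0.121) or 3 (1.01, adjusted p = 0.0516) in all groups.

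In order of mean level, ABCA1 was lowest in DMSO at day 1 (4.93 ± 0.37, SD, n = 3), then came DMSO at day 2 (5.45), EZH2i at day 1 (5.57), DMSO at day 3 (5.72) and DMSO at day 6 (5.72 ± 0.64). Each of these neighbours overlapped the one before it. Above them stood EZH2i at day 2 (6.67), day 3 (7.71) and day 6 (8.67 ± 0.18), none of which overlapped its lower neighbour. The span of 3.74 between the lowest and highest group was the widest of the 7 genes.

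ABCA1 had 4 probe sets, which did not behave alike. Probe set 203504_s_at, named for ABCA1 alone as well, differed by 1.01, 1.63, 2.43 and 3.40 ± 0.19 at days 1, 2, 3 and 6. In the fit over all 54613 probe sets it was called at every day, with adjusted p = 0.0273 at day 1. The day 1 call was lost in the fit limited to the groups compared, without DMSO replicate 1, 2 or 3 or EZH2i replicate 1 or 2 of that day, and without the arrays of replicate number 1 or 2. It read 4.20, 4.62 and 4.02 on the EZH2i arrays of day 1 and 3.39, 3.28 and 3.14 on the DMSO arrays, without overlap. By contrast, 216066_at and 1570279_at were called at no day, with day 6 differences of -0.01 and 0.24. Both stood near the 26th percentile of gene means over the 24 arrays, with 203505_at at the 55.7th and 203504_s_at at the 39.0th. These means include the EZH2i arrays. In DMSO, 203504_s_at had means of 3.27 at day 1 and 4.46 at day 6. Those of 216066_at were 4.34 and 4.27, and those of 1570279_at were 4.35 and 4.13. The mean of the 4 probe sets differed by 0.65, 1.11 and 1.64 at days 2, 3 and 6, and was called at each (adjusted p = 1.3e-09 at day 6). Of all 22 probe sets of the 7 genes, 1, 3, 4 and 8 were called at days 1, 2, 3 and 6, against 0.19%, 2.26%, 10.3% and 36.7% of all probe sets. The count was 1 at day 2 without replicate number 2 or 3, and 5 at day 6 without DMSO replicate 3 of that day or replicate number 1.

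**Figure D2:**
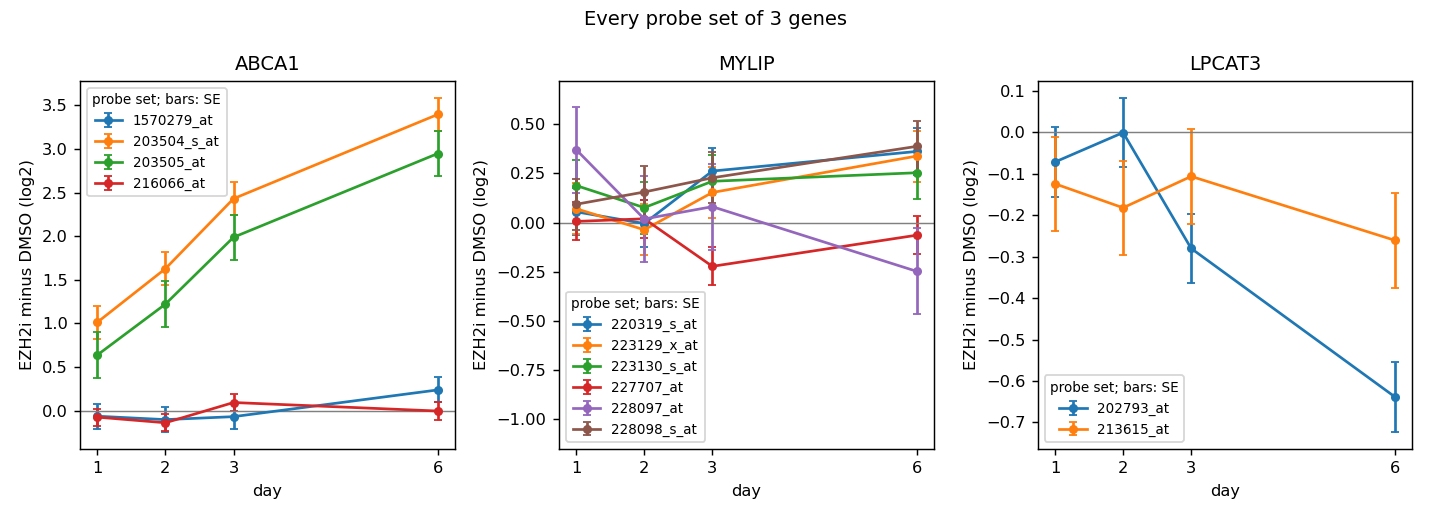
Difference EZH2i minus DMSO (log2, vertical axis) with its SE at days 1, 2, 3 and 6 (horizontal axis) for every probe set of ABCA1, MYLIP and LPCAT3. The vertical axes differ between genes. The ABCA1 probe sets 203505_at and 203504_s_at reach 2.95 and 3.40 at day 6, while 216066_at and 1570279_at stay at -0.01 and 0.24.

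ABCG1, the exporter that hands cholesterol to high density lipoprotein, lies at chr21:42199689-42297244 and did not pass the test at any day. Its brightest probe set stood at the 27.2th percentile of gene means, and its other 3 at or below the 6.3rd. It read 4.04, 4.37 and 4.25 on the EZH2i arrays of day 6 and 4.37, 4.71 and 4.26 on the DMSO arrays, with overlap. The differences at days 1, 2, 3 and 6 were -0.16, -0.17, -0.29 and -0.23 ± 0.13 (adjusted p = 0.136 at day 3 and 0.155 at day 6). The interval at day 6 ran from -0.49 to 0.04, and 0 of its 4 probe sets were called at any day.

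NR1H3, the oxysterol receptor LXR alpha, lies at chr11:47248300-47269033 and had 1 probe set. It read 6.41, 6.45 and 6.46 on the EZH2i arrays of day 6 and 6.82, 7.12 and 7.35 on the DMSO arrays. All 3 EZH2i values lay below all DMSO values, and they lay close together. The gene fell by 0.66 ± 0.15 (limma, adjusted p = 0.00086), 1.58-fold. At day 1 its values were 7.03, 7.14 and 7.39 in EZH2i and 6.98, 7.03 and 7.42 in DMSO. They were 6.83, 7.02 and 7.23 in EZH2i and 6.67, 6.84 and 7.02 in DMSO at day 2. At day 3 they were 6.70, 6.98 and 6.997 in EZH2i and 6.84, 7.07 and 7.25 in DMSO. The groups overlapped on each of these days, and the differences of 0.04, 0.18 and -0.16 were not called. In order of level EZH2i at day 6 (6.44) was the lowest and did not overlap the next group, DMSO at day 2 (6.84), while all higher neighbours up to EZH2i at day 1 (7.19) overlapped.

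LPCAT3, which places polyunsaturated chains in membrane phospholipids and is a target of LXR, lies at chr12:6976185-7018476. Its main probe set read 6.75, 6.75 and 6.62 on the EZH2i arrays of day 6 and 7.16, 7.44 and 7.44 on the DMSO arrays. At day 3 its EZH2i arrays lay between 6.9996 and 7.0082, and its DMSO arrays read 7.27, 7.34 and 7.24. EZH2i lay below DMSO without overlap on both days. LPCAT3 fell by 0.64 ± 0.08 at day 6 (adjusted p = 1.1e-06), 1.56-fold, and by 0.28 ± 0.08 at day 3 (adjusted p = 0.0205). The day 3 call was lost in 7 of 18 alternatives, among them the mean of its probe sets (-0.19, adjusted p = 0.1) and the fits without DMSO replicate 2 (0.0805), EZH2i replicate 2 (0.0582) or EZH2i replicate 3 (0.0521) of that day. At days 1 and 2 the differences were -0.07 and 0.00. Its second probe set, 213615_at, read 6.50, 6.29 and 6.52 in EZH2i and 6.63, 6.68 and 6.78 in DMSO at day 6, a difference of -0.26 that was not called (adjusted p = 0.0778).

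MYLIP encodes a ubiquitin ligase that limits lipoprotein uptake and is a target of LXR. It lies at chr6:16129086-16163887. Its brightest probe set read 8.29, 8.41 and 8.44 on the EZH2i arrays of day 6 and 8.27, 8.25 and 7.86 on the DMSO arrays. EZH2i lay above DMSO without overlap, by a narrow margin, as did 19.8% of all genes at that day. The difference was 0.25 ± 0.13 and was not called (adjusted p = 0.118). The earlier differences were 0.19, 0.08 and 0.21, with overlap. In the fit over all probe sets 3 of its 6 were called higher at day 6, namely 228098_s_at (0.39), 223129_x_at (0.34) and 220319_s_at (0.36), while 227707_at (-0.06) and 228097_at (-0.25) were not called. Its probe sets therefore differ in both sign and call.

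MYLIP was higher at day 6 than at day 1 in both arms. On the DMSO arrays it read 8.27, 8.25 and 7.86 at day 6, against 6.97, 7.33 and 7.22 at day 1. On the EZH2i arrays it read 8.29, 8.41 and 8.44 at day 6, against 7.49, 7.34 and 7.25 at day 1, so that neither arm overlapped between these days. DMSO day 6 minus DMSO day 1 was 0.95 ± 0.13 (adjusted p = 0.0006), the 21st highest of 19775 genes, and EZH2i day 6 minus EZH2i day 1 was 1.02 ± 0.13 (adjusted p = 1.2e-06). The effect at day 6 minus that at day 1 was 0.06 ± 0.18, with an interval of -0.32 to 0.45 (adjusted p = 0.841). The DMSO change was not called without the arrays of replicate number 1 (0.78, adjusted p = 0.0893). Of the 7 genes, 1 was called over time in DMSO, namely MYLIP, against 0.288% of all genes. In EZH2i, 5 of 7 were called between day 1 and day 6, 3 higher and 2 lower, against 41% of all genes, 16.9% higher and 24% lower.

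NPC2, the soluble cholesterol carrier of the lysosome, lies at chr14:74479935-74493512 and had 1 probe set. At day 1 it read 8.94, 8.96 and 9.02 on the EZH2i arrays and 8.68, 8.58 and 8.76 on the DMSO arrays. At day 2 it read 8.92, 9.25 and 9.47 in EZH2i and 8.36, 8.56 and 8.70 in DMSO. EZH2i lay above DMSO without overlap on both days, and its spread was wider at day 2. At day 3 it read 9.36, 9.85 and 9.95 in EZH2i and 8.59, 8.82 and 8.81 in DMSO. At day 6 it read 10.78, 11.02 and 10.86 in EZH2i and 8.72, 8.92 and 8.73 in DMSO. The gap between the arms at day 6 was many times the spread within either.

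The difference in NPC2 was 0.30 ± 0.14 at day 1, not called (limma, adjusted p = 0.798). NPC2 rose by 0.68 ± 0.14 at day 2 (adjusted p = 0.00381), 0.98 ± 0.14 at day 3 (adjusted p = 2.3e-05) and 2.09 ± 0.14 at day 6 (adjusted p = 5.1e-11). The last is 4.27-fold, with an interval of 1.81 to 2.38, and ranked 231st from the highest. The day 2 call was lost without the arrays of replicate number 2 (0.67, adjusted p = 0.167) or 3 (0.63, adjusted p = 0.0575). The 4 DMSO groups had the lowest means, 8.54 to 8.79, each overlapping its neighbour. EZH2i at day 1 (8.97 ± 0.04, SD) lay just above them, its lowest array at 8.94 beside 8.92 for the highest in DMSO at day 6. EZH2i at days 2 (9.22) and 3 (9.72) each overlapped the group below, and EZH2i at day 6 (10.89 ± 0.13) stood clear.

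NPC1, the membrane partner that takes cholesterol from NPC2, lies at chr18:23506184-23586506 and was not called at any day. It read 8.12, 8.22 and 8.28 on the EZH2i arrays of day 6 and 8.36, 8.39 and 8.44 on the DMSO arrays. EZH2i lay below DMSO without overlap, as did 32.3% of all genes, and the difference was -0.19 ± 0.09 (adjusted p = 0.102, interval -0.39 to 0.00). It was 0.00, -0.03 and -0.04 at days 1, 2 and 3. The day 6 difference was -0.23 with repeated quantile normalization (adjusted p = 0.0358) and -0.04 with the mean of its probe sets (adjusted p = 0.716). Of its 4 probe sets, 0 were called at any day.

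**Figure D3:**
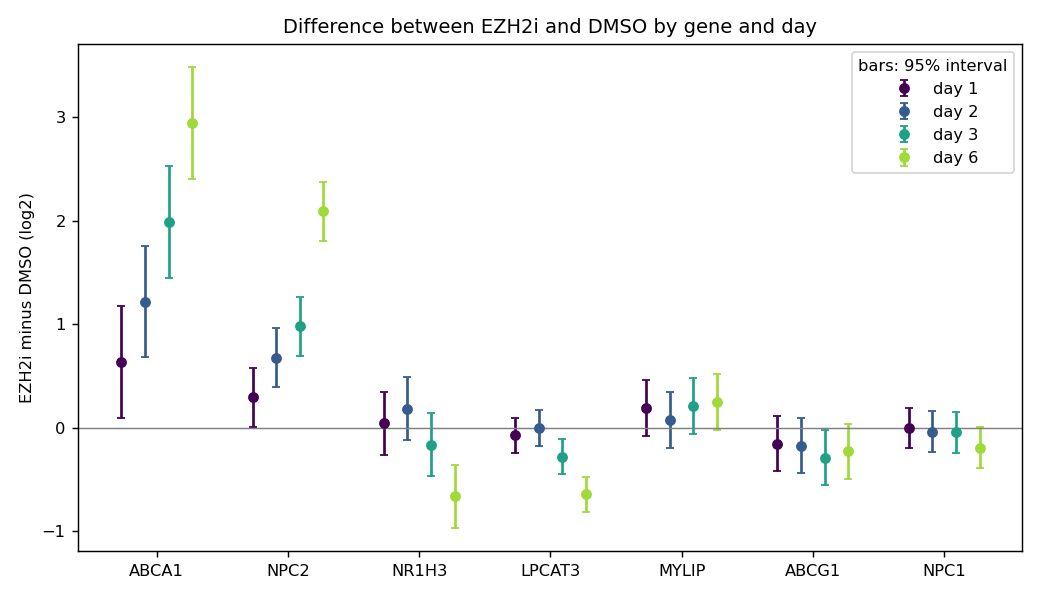
Difference EZH2i minus DMSO (log2, vertical axis) with its 95% interval for each of the 7 genes (horizontal axis) at days 1, 2, 3 and 6, in order from left to right. ABCA1 steps from 0.64 at day 1 to 2.95 at day 6 and NPC2 from 0.30 to 2.09, NR1H3 and LPCAT3 end at -0.66 and -0.64, and the intervals of MYLIP, ABCG1 and NPC1 include or touch 0 at day 6.

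Whether the response of a gene changed with time was tested as the effect at day 6 minus the effect at an earlier day, so these comparisons share the day 6 arrays with those above. Against day 1, 4 of 7 genes were called, as were 26.7% of all genes. The effect on ABCA1 was larger at day 6 by 2.31 ± 0.37 (limma, adjusted p = 4.5e-05) and that on NPC2 by 1.80 ± 0.19 (adjusted p = 3.6e-07). The effect on LPCAT3 was lower by 0.57 ± 0.12 (adjusted p = 0.000643) and that on NR1H3 by 0.70 ± 0.21 (adjusted p = 0.014). The NR1H3 call was lost without the arrays of replicate number 2 (-0.67, adjusted p = 0.204).

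Against day 3, 2 of 7 were called, with 12.5% of all genes. The NPC2 effect grew by a further 1.11 ± 0.19 (adjusted p = 0.00047). The NR1H3 step of -0.50 ± 0.21 was not called (adjusted p = 0.134). It was called in the alternative limma fits with a replicate block (adjusted p = 0.00243) or with that block within each day (adjusted p = 0.00661). For LPCAT3 the step was -0.36 ± 0.12 (adjusted p = 0.0441), and this call was lost in 16 of 24 alternatives. The ABCA1 step of 0.96 ± 0.37 was not called (adjusted p = 0.0963) but was without DMSO replicate 1 of day 6, the high array named above (1.33, adjusted p = 0.00763). In DMSO alone ABCA1 differed by 0.79 ± 0.26 between day 6 and day 1, which was not called (adjusted p = 0.307). It ranked 45th from the highest of 19775 genes. This difference was 0.42 without DMSO replicate 1 of day 6, 0.31 without replicate number 1 and 1.19 without number 3. The second probe set, 203504_s_at, read 3.14 to 3.39 on the DMSO arrays of day 1 and 4.09 to 4.73 on those of day 6. Its means of 3.27 and 4.46 were not tested against each other. NPC2 differed by 0.12 ± 0.14 in DMSO. In EZH2i alone ABCA1 rose by 3.10 ± 0.26 and NPC2 by 1.92 ± 0.14 over the same days.

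Across the 8 group means, the genes whose pattern was most like that of ABCA1, among 1834 genes with a span of at least 1 log2 unit, were CCDC88C, SNN, EPSTI1, DENND5B and CMTR1, with Pearson correlations of 0.999 to 0.996. They share the arrays and the strong day 6 EZH2i group, so the values describe likeness only. SNN had 9.73 in EZH2i and 7.86 in DMSO at day 6, and DENND5B 9.07 in EZH2i and 6.11 in DMSO. Among the genes followed here NPC2 came next at 0.95, 460th in that order, and MYLIP had 0.76. NR1H3, LPCAT3, ABCG1 and NPC1, whose spans were below 1 unit, had -0.81, -0.88, -0.71 and -0.52.

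Of 23 measured members of a list of LXR target genes, which holds ABCA1, NR1H3, LPCAT3, MYLIP and ABCG1 too, 2 were called higher and 8 lower at day 6, against 18.5% of all genes higher and 26.9% lower, with a median difference of -0.18 against -0.11 for all genes. FASN, the fatty acid synthase, fell by 2.05 ± 0.13, and by 1.17 with the mean of its probe sets. SCD, the stearoyl-CoA desaturase, fell by 1.26 ± 0.11 and with that mean fell by 2.06, and SREBF1, which encodes the lipogenic factor SREBP1, fell by 1.16 ± 0.11. The phospholipid transfer protein gene PLTP fell by 0.68 ± 0.13, and had already fallen by 0.63 at day 3, when FASN was lower by 0.53, a call lost in 1 of 18 alternatives. The other gene called higher, the phosphodiesterase SMPDL3A (0.37), lost its call in 8 of 17 alternatives. At day 1, 0 members were called, against 0.485% of all genes, and at day 2 ABCA1 alone, against 4.39%. At day 3, 1 was higher and 3 lower, against 8.64% and 7.65% of all genes.

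Among 16 partners and coregulators of LXR, 6 were called higher and 3 lower at day 6, against 18.5% of all genes higher and 26.9% lower, and the list's median of -0.13 was close to the -0.11 of all genes. The coactivator genes NCOA2 and NCOA1 rose by 1.83 ± 0.15 and 1.71 ± 0.13, and by 1.00 and 0.84 at day 3. They were also called at day 2 (0.75 and 0.51), which was lost in 2 and 5 of 18 alternatives. With the mean of its probe sets NCOA2 differed by 0.26, 0.23 and 0.56 at days 2, 3 and 6. PPARD, a nuclear receptor that binds fatty acids, was called with its brightest probe set (1.07) but not with the mean of its probe sets (0.16, adjusted p = 0.0851), and the methyltransferase gene PRMT3 fell by 0.94 ± 0.15. TBL1X, a subunit of the corepressor complex, rose by 0.67 ± 0.17 at day 6, or 0.31 with the mean of its probe sets. That call was lost in 0 of 18 alternatives. At day 2 TBL1X differed by 0.66, a call lost in 9 of 18 alternatives. RXRA, RXRB and RXRG, the dimer partners of LXR, differed by -0.13, -0.12 and -0.08 and were not called.

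Enzymes and sensors of oxysterols, the ligands of LXR, gave 2 genes higher and 6 lower of 13 at day 6 (median -0.23), against 18.5% of all genes higher and 26.9% lower. At days 1, 2 and 3, limma called 0, against 0.485%, 4.39% and 16.3% of all genes. Before adjustment 0, 1 and 2 had a p under 0.05, a threshold at which the share of all genes was not counted. In 4 alternative settings each, 1 to 2 were called at days 2 and 3. EBP, a sterol isomerase, fell by 1.41 ± 0.16. INSIG1, which holds the SREBP machinery in the endoplasmic reticulum, fell by 0.86 ± 0.12, or 1.30 with the mean of its probe sets. Its relative INSIG2 rose by 0.71 ± 0.15, and GPR183, the oxysterol receptor that steers B cells in lymphoid tissue, by 0.60 ± 0.11.

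The genes of lysosomal and inter-membrane sterol transfer, the wider setting of NPC2 and NPC1, gave more calls higher than lower. Of 27 measured, 11 were higher and 6 lower at day 6, against 18.5% of all genes higher and 26.9% lower, and the median was 0.12 against -0.11 for all genes. GRAMD1C, of a family that carries sterol from the plasma membrane to the endoplasmic reticulum, rose by 3.14 ± 0.17 at day 6 and by 1.12 at day 3. SCARB2 (LIMP-2), a lysosomal membrane protein, rose by 2.08 ± 0.13, or 1.22 with the mean of its probe sets, which gave 0.70 and 0.80 at days 2 and 3. SCARB2 was also higher by 0.78 ± 0.13 at day 1 (adjusted p = 0.00413, lost in 4 of 18 alternatives), by 1.34 at day 2 and by 1.69 at day 3. At day 1 the mean of its probe sets gave 0.35, which was not called (limma, adjusted p = 0.122). LIPA, the acid lipase that frees cholesterol from its esters in the lysosome, rose by 1.51 ± 0.12 at day 6 and was higher by 0.57 at day 2, a call lost in 1 of 18 alternatives. TMEM97, which binds NPC1, fell by 1.40 ± 0.10. The list had 1, 3 and 12 called members at days 1, 2 and 3, against 0.485%, 4.39% and 16.3% of all genes. Without the arrays of 1 replicate number the counts went down to 0 at day 1 (number 1, 2 or 3), 1 at day 2 (number 2) and 7 at day 3 (number 3). The day 1 count was also 0 with the mean of probe sets.

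**Figure D4:**
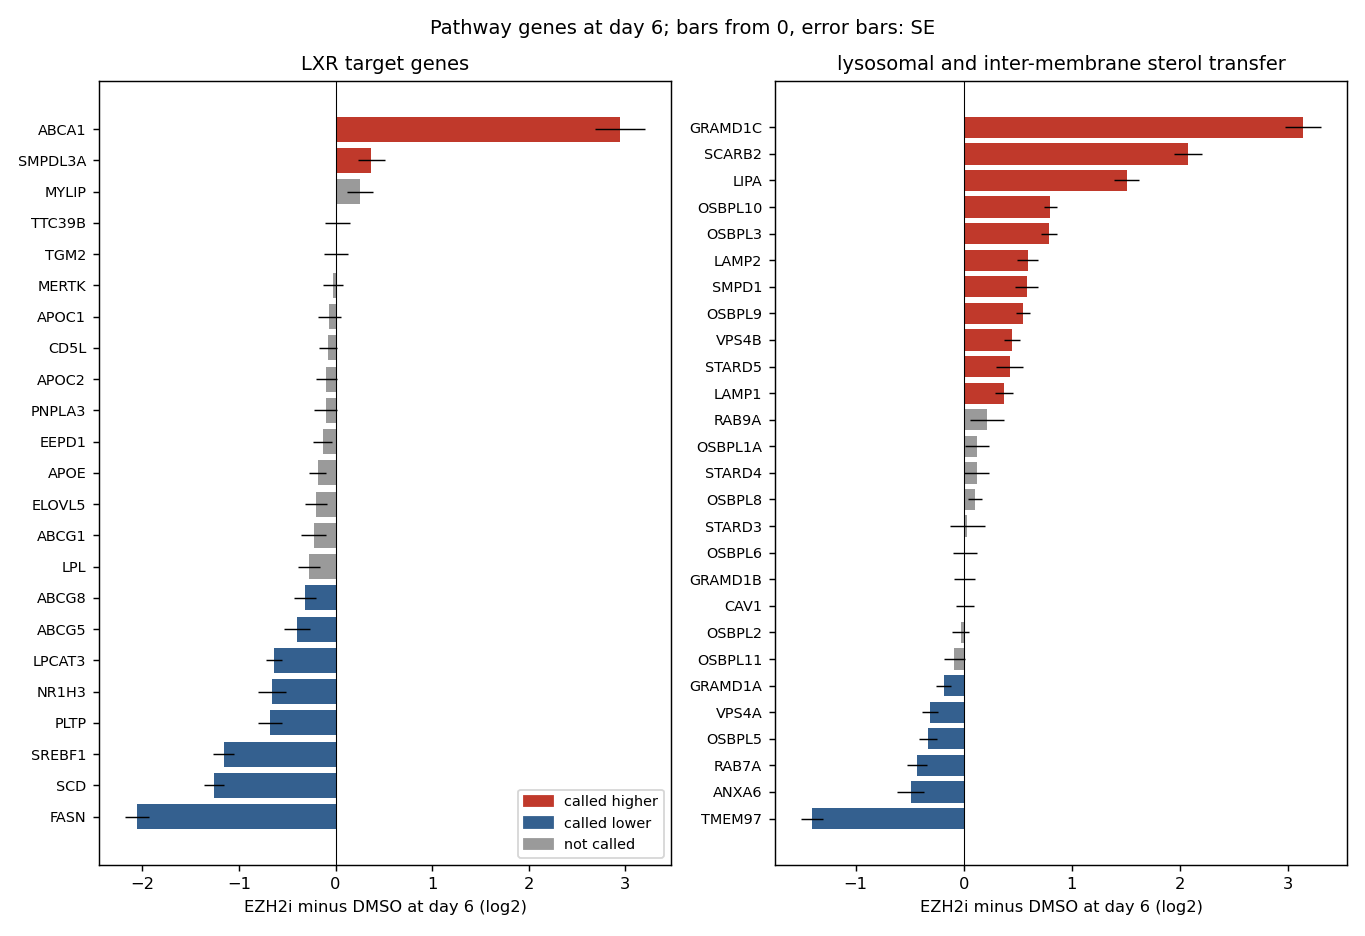
Difference EZH2i minus DMSO at day 6 (log2, horizontal bars from 0 with SE) for the measured genes of the LXR target list on the left and of lysosomal and inter-membrane sterol transfer on the right, red where called higher, blue where called lower and grey otherwise. In the left panel ABCA1 (2.95) stands apart from a list with 8 genes lower, and in the right panel 11 genes are higher, led by GRAMD1C (3.14) and SCARB2 (2.08).

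Of 15 other ABC and scavenger lipid transporters, 2 were higher and 3 lower at day 6 (median -0.14), against 18.5% of all genes higher and 26.9% lower. ABCA5 rose by 2.01 ± 0.27 and ABCA7 by 1.67 ± 0.12, with 1.24 and 0.40 at day 3, calls lost in 1 and 6 of 18 alternatives. SCARB1, the receptor for high density lipoprotein, fell by 1.29 ± 0.14, or 0.85 with the mean of its probe sets. At day 3 SCARB1 was lower by 0.50, a call lost in 4 of 18 alternatives. LCAT, which esterifies cholesterol in plasma, was lower by 0.29 ± 0.08, lost in 3 of 17 alternatives.

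Among 17 genes of sterol uptake, storage and SREBP control, 2 were higher and 8 lower at day 6 (median -0.31), against 18.5% of all genes higher and 26.9% lower. HMGCS1, DHCR7 and SQLE, enzymes of cholesterol synthesis, fell by 1.34 ± 0.12, 1.33 ± 0.15 and 1.03 ± 0.13. HMGCS1 was lower by 0.37 at day 3 and NPC1L1 by 0.34 at day 2, calls lost in 11 and 3 of 18 alternatives. NCEH1, which hydrolyses cholesterol esters outside the lysosome, rose by 1.07 ± 0.12 at day 6 and was higher by 0.62 at day 2 and by 0.50 at day 3, calls lost in 2 and 1 of 18 alternatives. Of 7 lysophospholipid acyltransferases other than LPCAT3, 0 were higher and 4 lower at day 6 (median -0.39), against 18.5% of all genes higher and 26.9% lower. LCLAT1 fell by 0.75 ± 0.14, MBOAT7 by 0.71 ± 0.12 (0.45 with the mean of its probe sets), LPCAT4 by 0.51 ± 0.08 and LPCAT1 by 0.39 ± 0.09, the last lost in 1 of 18 alternatives. LPCAT4 was also lower by 0.26 at day 3, a call lost in 9 of 18 alternatives.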

How the data were processed

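The deposited values are log2 expression per probe set. The authors made them with RMA, which corrects background, equalises array quantiles and summarises probes, and the submitters' processing notes name R 2.10.1. The log base is not given in the sources used here; the values run from 1.72 to 14.33 and array medians from 4.958 to 5.032, as on a log2 scale. RMA makes no detection calls, and the number of arrays limits the precision.

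From these values limma 3.58.1 (R 4.3.3, statmod 1.5.0 and data.table (1.17.8)) was fitted with 1 coefficient for each of the 8 groups over the brightest probe set of each of 19775 genes, and again over all 54613 probe sets. Residual degrees of freedom were 16 and prior ones 5.22. Its p-values were adjusted by Benjamini and Hochberg within each contrast, and every adjusted p in the text comes from limma, since an exact permutation test of 3 arrays against 3 cannot go below p = 0.1. The code was tested on simulated data. The 1801 probe sets with several gene symbols were left out, 11721 probe sets have no gene named here, and symbols were updated by Entrez ID for 41037.

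The genes followed and the pathway lists were chosen with earlier results of these data known. Named pathway genes are up to 4 called genes of a list with the largest difference at day 6 and up to 2 at each earlier day; RXRA, RXRB and RXRG were added as dimer partners after their values were seen. The 5 genes most like ABCA1 and EZH2 complete the rule. List members without a single-symbol probe set are not analysed here. Arrays of an equal replicate number had correlated residuals (over 0.1) in 11 of 12 EZH2i and DMSO pairs. The labels tie no number to a shared culture or day and 1 pair fell short, so the fit without a block stayed the main one and the blocked fits are alternatives. Alternatives were array medians subtracted, repeated quantile normalization, averaging over probe sets, a filter on dim genes, limma with trend, array weights, a replicate block, fits limited to the groups compared, and leaving out arrays. Promoter windows came from RefSeq (GRCh38.p14).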

Additional observations from a re-analysis of the deposited data

Results flagged for a closer look

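For 4 genes the effect of the inhibitor differed between days by limma's test of the difference itself. Of all genes, 26.7% were called for day 6 against day 1 and 12.5% for day 6 against day 3. The effect at day 6 minus that at day 1 was 2.31 for ABCA1, 1.80 for NPC2, -0.57 for LPCAT3 and -0.70 for NR1H3, the last not called without the arrays of replicate number 2 (adjusted p = 0.204). The effect at day 6 minus that at day 3 was 1.11 for NPC2 and -0.36 for LPCAT3, a call lost in 16 of 24 alternatives.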

How the results depend on the processing

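Of 1070 recomputed tests of the 7 genes, 1036 kept their side of the threshold, 30 fell short of it, 4 passed it newly and 0 reversed. A change of sign counted as a reversal only where either fit called the gene. Some uncalled differences near 0 did change sign, such as NR1H3 at day 1 (-0.06 to 0.18). The day 6 calls of ABCA1, NPC2, NR1H3 and LPCAT3 held in all alternatives. Leaving out arrays gave ABCA1 0.94 to 1.38 and NPC2 0.55 to 0.82 at day 2, and members called of 0 to 2 at day 2, 2 to 3 at day 3, 3 to 4 for day 6 against day 1, 1 to 3 for day 6 against day 3 and 0 to 1 for DMSO over time. For day 6 against day 3, 1 member was called with array medians subtracted, the mean of probe sets, limma with trend or the fit limited to the groups compared.

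Calls over all genes moved more. At day 1 the 96 became 53 with the mean of probe sets, 246 with the replicate block, 301 with that block within each day, 160 with array weights, 46 in the limited fit and 2 to 87 without arrays. At day 2 the 869 became 1649 and 1866 with these blocks, 1441 with weights and 255 to 720 without arrays. At day 3 the 3221 became 4853 with the block within day and 1234 to 3067 without arrays. For day 6 against day 1 the 5277 became 2998 to 5056 without arrays. For day 6 against day 3 the 2474 became 3715 and 3977 with the blocks and 601 to 2443 without arrays. For DMSO over time the 57 became 199 with the block, 92 with weights, 31 in the limited fit and 7 to 41 without arrays. With the replicate block NR1H3 was called for day 6 against day 3 (-0.50, adjusted p = 0.00243), and within day at 0.00661; 21 of 24 arrays had their best correlation within their own number. SOAT1 reversed at day 6 with the mean of probe sets (0.078, adjusted p = 0.493). Of 698 recomputed counts of lists and probe sets, 84 moved beyond 1.5 times. The cause was not tested.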
